A study of Mus musculus with 6 samples.

Results

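The 33 genes described here encode proteins of the lysosome, the acidic compartment in which cells break down protein, lipid and sugar chains. They were chosen by name, with earlier results of these data known. They comprise 10 peptidases, 11 glycosidases and sulfatases, 3 lipid hydrolases, 2 cholesterol exporters, 5 membrane proteins, and the precursors of saposins and granulins. All 33 had a probe set whose annotation names that gene alone, among 18193 genes with such a probe set, and for each gene the probe set with the highest mean over the 6 arrays stood for it. Of the 33, 32 were among the 12277 genes tested. Ctsk was left out as too dim, and 30 had signal over 16 intensity units, taken as the floor, in all 6 arrays.

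Expression arrays were run on lung endothelial cells of mice, the cells lining blood vessels, all held for 16 h at 0.5% oxygen. The labels name the genotype of the 3 control arrays differently in different places: as floxed/floxed, as floxed/WT with VE-Cadherin-Cre, and as wild type. The 3 knockout arrays came from mice floxed/floxed for HIF-2a that carried VE-Cadherin-Cre, a Cre driven by the promoter of an endothelial cadherin gene. HIF-2a (gene symbol Epas1) is a transcription factor stabilised at low oxygen. Cells were selected repeatedly with endothelial markers, per the labels. All arrays were at low oxygen, so the comparison is between genotypes and not between oxygen levels. The labels do not say whether arrays of a group were separate cultures or animals, and the p-values therefore reflect the array-to-array spread alone, which may be technical.

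Epas1 itself had 9444 to 9611 intensity units in control arrays and 8920 to 9859 in knockout arrays, which is -0.02 ± 0.04 on the log2 scale (SE, limma adjusted p = 0.753). The position of its probes relative to the deleted part was not used here, so this signal does not check the genotype, and "knockout" follows the labels throughout. Endothelial markers had signal, with Emcn at 21170 to 26138 and Egfl7 at 21996 to 27176 units over the 6 arrays. However, Vwf read only 32.9 to 69.1 units and Cldn5 15.2 to 74.7, with Cldn5 under the floor in knockout 3. All 12 endothelial markers had a negative difference, as had 4667 of all 12277 genes tested, and 4 of them fell (Pecam1, Tek, Tie1 and Erg; 33.3%, beside 5.07% of all genes called lower), with a summed signal of 145320 to 157734 units in controls and 119565 to 133325 in knockouts, and the part of this in the results was not tested. The closest pair of arrays was controls 1 and 3, whose gene-wise log2 differences had an SD of 0.14, against 0.31 to 0.68 for other pairs within a group.

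Lysosomal enzymes are made in the endoplasmic reticulum, tagged with mannose 6-phosphate in the Golgi apparatus and carried to the lysosome, where the V-ATPase proton pump keeps the pH low. Many of their genes carry a palindromic DNA element that is bound by TFEB and its relatives TFE3 and MITF, factors held in the cytoplasm while nutrient signalling through mTORC1 is active. In endothelial cells lysosomes take part in the turnover of surface receptors and of matrix proteins taken up from outside.

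Genes for peptidases and for lipid handling were among those lower in the knockout arrays, and 1 cathepsin gene was higher. Npc1, Tpp1, Lipa, Ctsd and Ctsl fell, Ctsh rose, and the other 26 of the 32 tested genes did not pass (limma, Benjamini-Hochberg adjusted p over all 12277 genes, threshold 0.05). The 6 called are 18.8% of the 32, beside 13.7% of all genes tested, of which 2356 were under the floor in all arrays. With the dimmest 60% of probe sets left out instead, 4 of 30 lysosomal genes were called, beside 1885 of 9449 genes. By direction, 5 of the 32 fell, beside 5.07% of all genes, and 1 rose, beside 8.63%. The median log2 difference, knockout minus control, was -0.08 over the 32 and 0.0071 over all genes tested. Of all 12277 genes 4667 had a negative difference, and of the 32 lysosomal genes 20 had one. In 8 of them (Npc1, Tpp1, Lipa, Ctsd, Ctsl, Ctsa, Ctsb and Grn) every knockout array was below every control array, as in 12.8% of all genes, and in 4 (Ctsh, Sgsh, Glb1 and Hexa) every knockout array was above, as in 23.4%. In bulk RNA a lower signal from fewer cells of a kind and from less RNA per cell cannot be told apart.

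**Figure D1:**
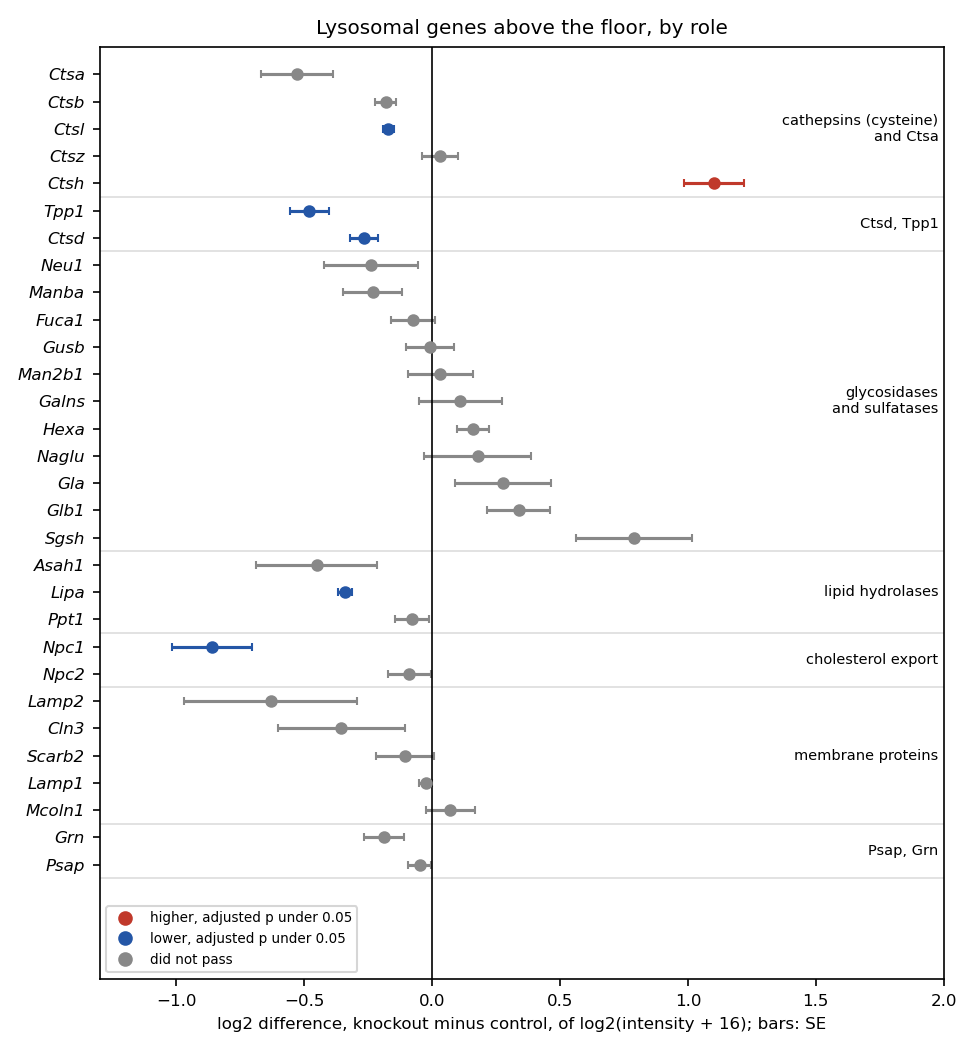
Log2 difference between knockout and control arrays (x axis, log2 of intensity + 16; points: estimate, bars: SE) for the 30 lysosomal genes above the floor, grouped by role. Ctsh stands at 1.10 on the right, Npc1 at -0.86 on the left, and the glycosidases spread on both sides of 0 with none past the threshold.

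The number of calls rested on single arrays. Leaving out control 1, 2 or 3 gave 0, 3 and 1 calls, and leaving out knockout 1, 2 or 3 gave 1, 6 and 7. With 0 calls, without control 1, 8 of the 32 genes had an unadjusted limma p under 0.05, beside 10 with all arrays. Lipa lost its call without control 1 alone. Ctsh and Ctsl lost theirs without control 1, control 3 or knockout 1. Npc1 and Ctsd lost theirs without any 1 of the 3 controls or without knockout 1, and Tpp1 in these cases and without knockout 2. The direction of these 6 genes was the same in every alternative run. Their groups did not overlap, so leaving out arrays could not have changed it.

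Ctsh, an aminopeptidase of the cathepsin family that trims peptides from their N-terminal end, had 3982, 4935 and 4312 intensity units in controls 1 to 3 and 9684, 10342 and 8420 in knockouts 1 to 3. The groups were far apart, with means of 4410 ± 484 and 9482 ± 977 units (SD, n = 3 each), a 2.15-fold higher level, or 1.10 ± 0.12 on the log2 scale (SE, limma adjusted p = 0.0123). Its second probe set gave 1.11 ± 0.11 (adjusted p = 0.015 over probe sets). Over the alternatives the difference of Ctsh ran from 0.82 to 1.27, with adjusted p from 7.78e-05 to 0.0679.

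Ctsd, the main aspartic protease of lysosomes, had 23454, 23229 and 22703 units in the controls and 19491, 20387 and 17917 in the knockouts. All 3 knockout arrays were below the controls, with a log2 difference of -0.27 ± 0.05 (limma adjusted p = 0.0436). Tpp1, which removes tripeptides from protein ends, had 9639, 9869 and 9382 units against 7390, 7181 and 6187. Its difference was -0.48 ± 0.08 (adjusted p = 0.0271), and -0.73 ± 0.06 in its other probe set (adjusted p = 0.0102 over probe sets). Ctsl, a cysteine endopeptidase, had 30014, 30574 and 30614 units against 27243, 27231 and 26559. That is a small shift with little spread between arrays, -0.17 ± 0.02 (adjusted p = 0.0142), while its other probe set gave -0.67 ± 0.13 (adjusted p = 0.0541 over probe sets). The 2 probe sets of Ctsl therefore put different sizes on the change.

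The remaining peptidases split into genes with lower values that did not pass and genes at the floor. Ctsa, the carboxypeptidase that also protects neuraminidase and β-galactosidase, had 6911, 7818 and 6744 units in controls and 5156, 5687 and 4120 in knockouts, a log2 difference of -0.53 ± 0.14 (limma adjusted p = 0.0761). The groups of Ctsa did not overlap, yet the knockout arrays differed among themselves. Ctsb, a cysteine protease with both endopeptidase and peptidyl-dipeptidase activity, had 24593, 26386 and 24959 units against 22638, 22823 and 21508 (-0.18 ± 0.04, adjusted p = 0.0523). In all 4 of its probe sets above the floor every knockout array was below every control, with differences of -0.18 to -0.57, and the largest of these passed over probe sets (adjusted p = 0.0197). Ctsz, a carboxypeptidase, had overlapping groups (18558 ± 1198 and 18957 ± 1249 units, 0.03 ± 0.07, adjusted p = 0.846). Ctss, typical of macrophages and other antigen-presenting cells, Ctsc, which activates serine proteases of leukocyte granules, and Ctsk, the collagenase of osteoclasts, read 4.58 to 5.41 units in every array, which is at the floor, so no fold is given for them.

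**Figure D2:**
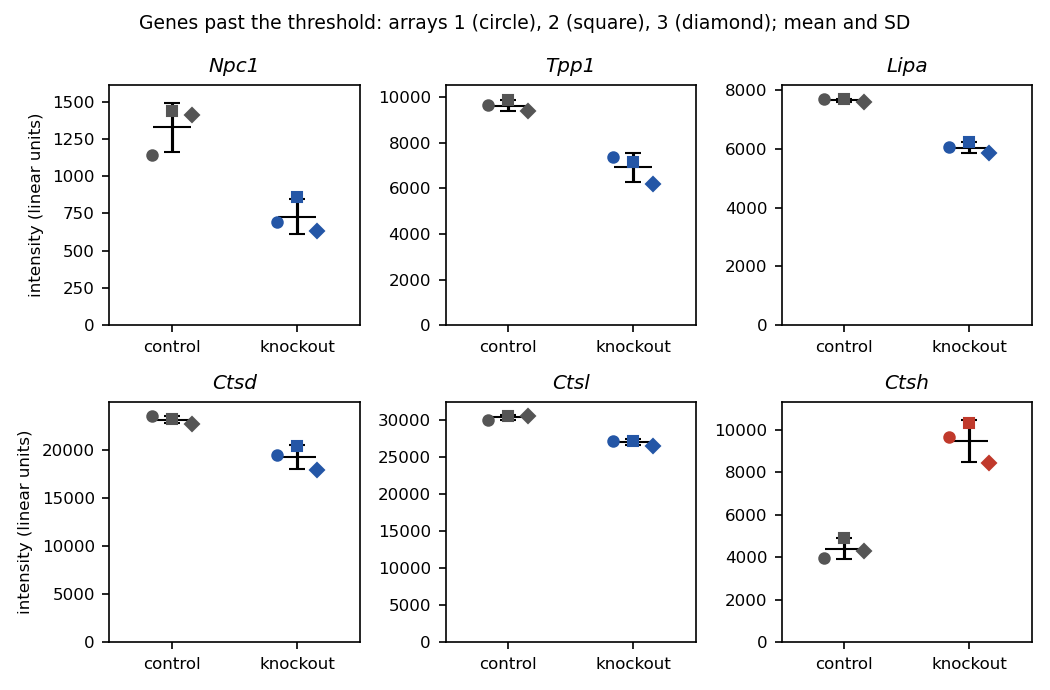
Intensity (y axis, linear units from 0) in each control and knockout array for the 6 genes past the threshold; marker shapes are the replicate numbers 1 to 3, the long bar is the mean and the whiskers the SD of 3 arrays. The groups do not overlap in any panel, and the shift is widest relative to the level in Ctsh, with means of 4410 and 9482 units, and small in Ctsl, with means of 30401 and 27011 units.

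Of the 5 genes that handle lipids, Npc1 and Lipa fell and the other 3 did not pass. Npc1, the membrane protein that moves cholesterol out of the lysosome, had 1138, 1436 and 1410 units in controls and 690, 859 and 631 in knockouts. Its level was 1.83-fold lower, with a log2 difference of -0.86 ± 0.16 (limma adjusted p = 0.0335). Npc2, the soluble protein that hands cholesterol to Npc1, had overlapping groups (19129 ± 878 and 18027 ± 1763 units, -0.09 ± 0.08, adjusted p = 0.526). Lipa, the acid lipase that frees cholesterol and fatty acids from lipoprotein esters, had 7686, 7675 and 7594 units against 6049, 6212 and 5851. Its arrays were tight within each group, and its difference of -0.34 ± 0.03 had the smallest p of the 33 genes (adjusted p = 0.00691). The other probe sets of Lipa gave -0.36 and -0.53. Over the alternatives its difference ran from -0.41 to -0.30, with adjusted p from 3.03e-05 to 0.0563.

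Asah1, which splits ceramide, had 10031, 8485 and 10922 units in controls and 7476, 5283 and 9191 in knockouts, with knockout 3 inside the range of the controls (-0.45 ± 0.24, adjusted p = 0.268). Ppt1, which removes palmitate from proteins, had 1457 ± 71.2 and 1380 ± 94.9 units (-0.08 ± 0.07, adjusted p = 0.48).

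No glycosidase or sulfatase among the 11 passed the limma test over all arrays. An unadjusted limma p under 0.05 held for 2 of the 11, beside 3980 of all 12277 genes. The median difference of the 11 was 0.11, and 7 were positive, beside 7610 of all 12277 genes. Sgsh, which removes sulfate from heparan sulfate, had 96.8, 95.7 and 89.6 units in controls and 144, 251 and 145 in knockouts. Knockout 2 stood above the other 2 knockouts, and the difference was 0.79 ± 0.23 (adjusted p = 0.0891). Glb1, the β-galactosidase used as a marker of senescent cells, had 3125, 3603 and 3037 units against 3929, 4772 and 3695 (0.34 ± 0.12, adjusted p = 0.145). Hexa, the α subunit of hexosaminidase, had 16112, 16197 and 16131 units against 18666, 19098 and 16494 (0.16 ± 0.06, adjusted p = 0.159). For Sgsh, Glb1 and Hexa the groups did not overlap, but the lowest knockout array of Hexa lay close to the controls.

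Gla, the α-galactosidase, had 967, 1279 and 906 units in controls and 1384, 1389 and 1045 in knockouts (0.28 ± 0.19, adjusted p = 0.373). Naglu, which acts on heparan sulfate after Sgsh, had 848 ± 103 and 976 ± 231 (0.18 ± 0.21, adjusted p = 0.622), and Galns, a sulfatase of keratan sulfate, 565 ± 66.6 and 615 ± 107 (0.11 ± 0.16, adjusted p = 0.71). On the negative side, Neu1, the sialidase, had 1690 ± 234 and 1438 ± 272 units (-0.24 ± 0.18, adjusted p = 0.43), and the β-mannosidase Manba 2869 ± 348 and 2434 ± 217 (-0.23 ± 0.12, adjusted p = 0.247). The α-fucosidase Fuca1 (-0.08 ± 0.09), the β-glucuronidase Gusb (-0.0072 ± 0.09) and the α-mannosidase Man2b1 (0.03 ± 0.13) had overlapping groups too. A second probe set of Gusb had a positive difference (0.54 ± 0.26) and neither passed.

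None of the 5 lysosomal membrane proteins passed the limma test, with 0 at an unadjusted p under 0.05. Of their differences 4 were negative and 1 positive, with a median of -0.11, while 4667 of all 12277 genes had a negative one. Lamp1, a heavily glycosylated protein that lines the lysosomal membrane, had 24437 ± 268 units in controls and 24034 ± 634 in knockouts (-0.02 ± 0.03, adjusted p = 0.582). Lamp2, its relative needed for fusion with autophagosomes, had 18155, 12242 and 17828 units against 9899, 7116 and 15129. Control 2 was below knockout 3, so the groups of Lamp2 overlapped, and the difference of -0.63 ± 0.34 did not pass (adjusted p = 0.275). Its other 3 probe sets gave -0.72 to -0.92, and in 2 of them the groups did not overlap. Lamp2 passed under 2 of the 22 alternatives, with array weights and with control 2 and knockout 3 left out together, the latter added once the values were known. Its difference ran from -1.10 to 0.11 over the alternatives, positive once the spike-in level entered as a covariate, and its adjusted p from 0.00113 to 0.981. Scarb2, the receptor that carries β-glucocerebrosidase to lysosomes, had a difference of -0.11 ± 0.11, and 0.48 ± 0.24 in its other probe set. Mcoln1, the calcium channel TRPML1, had 0.07 ± 0.09, and Cln3, mutated in juvenile Batten disease, -0.36 ± 0.25 at 199 to 435 units.

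The precursors of saposins and granulins did not pass. Psap, which yields the activators of sphingolipid breakdown, had 20286 ± 533 and 19619 ± 954 units (-0.05 ± 0.04, adjusted p = 0.51). Grn had 12707, 13193 and 12703 units in controls and 11210, 12473 and 10300 in knockouts, without overlap (-0.19 ± 0.08, adjusted p = 0.175).

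**Figure D3:**
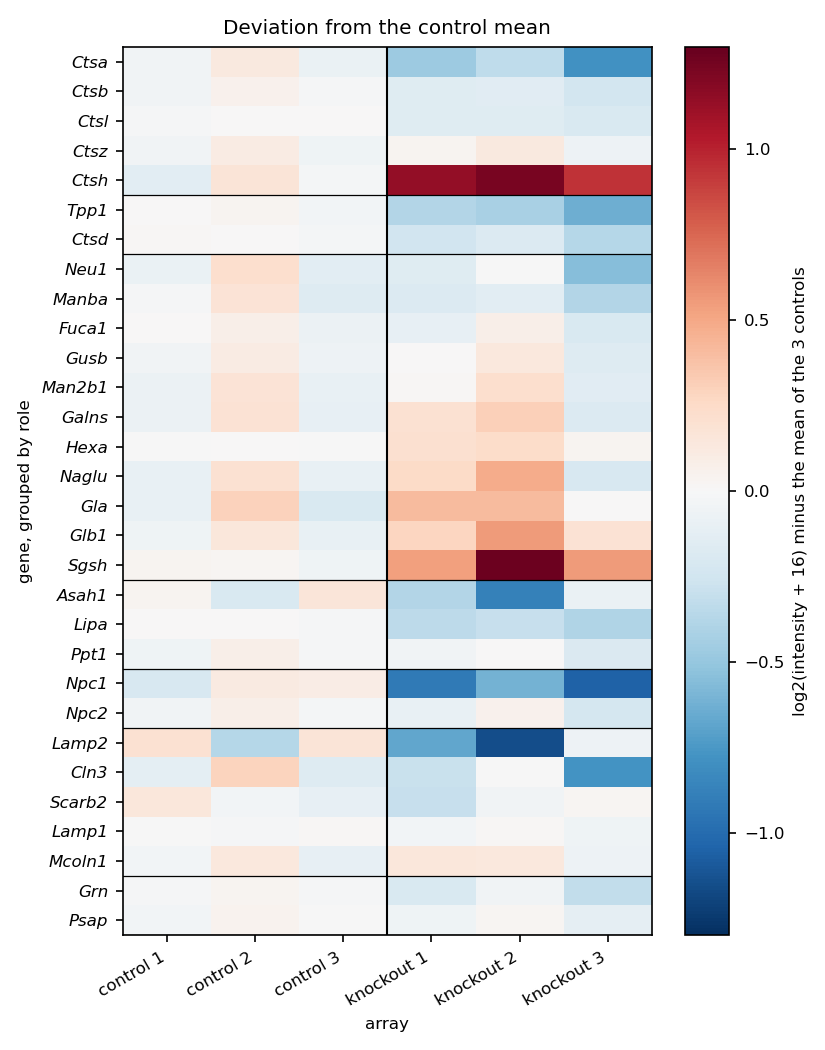
Each cell is 1 array's log2(intensity + 16) minus the mean of the 3 controls, for the 30 genes above the floor (rows, by role) and the 6 arrays (columns); red is higher and blue lower. Npc1, Tpp1, Lipa and Ctsa are lower in all 3 knockout columns, Ctsh is higher in all 3, and Lamp2 is lower in control 2 and in knockouts 1 and 2 than in knockout 3.

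Over the 30 genes above the floor, the median deviation from the control mean was -0.04, 0.08 and -0.05 in controls 1 to 3 and -0.10, 0.0095 and -0.18 in knockouts 1 to 3 on the log2 scale. Knockout 2 therefore lay among the controls by this median, although its single genes ran from -1.15 to 1.28. The spike-in controls bioB and bioC were brighter in knockouts 1 and 2 (means of 2252 and 2307 units) than in knockout 3 (1993) and in the controls (1734 to 2025), and the part of this in the results was not tested beyond its use as a covariate. Of 42 further probe sets of these genes, 26 were above the floor in all arrays, of which 23 had the sign of the gene's own probe set and 3, of Fuca1, Gusb and Scarb2, the opposite sign. Over probe sets 4 of the 26 passed, all with the gene's sign, beside 2066 of all 27023 probe sets tested. They belong to Ctsb, Ctsh, Lipa and Tpp1, of which all but Ctsb were called already, and they read the same arrays again.

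Promoter sequence from RefSeq (GRCm38.p6; from 250 bases before to 50 after a start) was matched for 28 of the 33 genes, with 31 starts, and not for Ctsb, Ctsh, Galns, Asah1 and Npc1. The core of the TFEB-family element, CACGTG, which reads the same on both strands, was in 10 of the 31 promoters (32.3%), beside 7.15% of all 32851 promoters of this length. Its extended form TCACGTGA, which contains the core, was in 5 of 31 (16.1%), beside 0.974%. For the core of the HIF element, ACGTG on either strand, which every CACGTG also contains, the shares were 41.9% and 19.6%, and for GCGTG on either strand 45.2% and 32.4%. A match is a description of the letters and not a binding site. Of the 10 genes with the core, Ctsl and Ctsd fell and Ctsa, Gla, Glb1, Naglu, Sgsh, Lamp1, Mcoln1 and Cln3 did not pass.

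The 250 bases before the start of the 4 genes that fell and had a promoter here are shown for comparison, 5′ to 3′ on the strand of the gene, with CACGTG or TCACGTGA in capitals. Ctsd holds the extended form 99 bases before its start and the core again at 245, Ctsl holds the core at 236, and Lipa and Tpp1 hold neither.
Ctsd, chr7:142387828-142388077, minus strand: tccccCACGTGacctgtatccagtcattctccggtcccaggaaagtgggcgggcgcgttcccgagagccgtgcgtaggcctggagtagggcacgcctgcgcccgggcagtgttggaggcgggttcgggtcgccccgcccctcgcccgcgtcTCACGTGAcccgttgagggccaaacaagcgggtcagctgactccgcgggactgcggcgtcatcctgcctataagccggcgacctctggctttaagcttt
Ctsl, chr13:64370521-64370770, minus strand: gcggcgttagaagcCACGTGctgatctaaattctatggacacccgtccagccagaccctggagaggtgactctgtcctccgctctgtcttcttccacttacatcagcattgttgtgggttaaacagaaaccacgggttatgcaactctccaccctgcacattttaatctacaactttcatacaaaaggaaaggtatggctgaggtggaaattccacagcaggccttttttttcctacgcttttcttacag
Lipa, chr19:34527475-34527724, minus strand: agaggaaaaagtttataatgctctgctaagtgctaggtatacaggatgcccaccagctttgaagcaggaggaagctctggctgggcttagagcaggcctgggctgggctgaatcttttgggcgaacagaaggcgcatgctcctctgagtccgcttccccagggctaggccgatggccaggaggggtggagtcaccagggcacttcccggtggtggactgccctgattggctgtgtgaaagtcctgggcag
Tpp1, chr7:105752236-105752485, minus strand: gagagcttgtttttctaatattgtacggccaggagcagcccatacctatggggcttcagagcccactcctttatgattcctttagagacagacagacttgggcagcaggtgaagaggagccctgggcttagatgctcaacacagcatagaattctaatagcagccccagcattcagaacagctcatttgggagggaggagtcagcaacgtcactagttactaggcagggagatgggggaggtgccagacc

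The other genes with the extended form, and Lamp1 with the core 4 times, are shown over the stretch before the start that holds it. None of these genes passed the test, and the part of the element in their differences was not tested. Log2 differences were -0.53 for Ctsa, -0.36 for Cln3, 0.07 for Mcoln1, 0.28 for Gla and -0.02 for Lamp1. Ctsa has the form 13 bases before its start and again 4 bases after it, the latter not shown. Cln3 has it 122 bases before its start, Mcoln1 at 46, and Gla at 228 and again at 195.
Ctsa, chr2:164833713-164833772, plus strand: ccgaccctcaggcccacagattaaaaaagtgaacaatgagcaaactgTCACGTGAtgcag
Cln3, chr7:126583327-126583396, minus strand: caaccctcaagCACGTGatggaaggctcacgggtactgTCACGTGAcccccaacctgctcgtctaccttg
Mcoln1, chr8:3500429-3500498, plus strand: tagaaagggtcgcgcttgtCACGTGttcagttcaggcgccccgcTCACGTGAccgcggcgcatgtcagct
Gla, chrX:134601186-134601255, minus strand: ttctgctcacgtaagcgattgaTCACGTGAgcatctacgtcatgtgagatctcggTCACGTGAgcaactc
Lamp1, chr8:13159081-13159160, plus strand: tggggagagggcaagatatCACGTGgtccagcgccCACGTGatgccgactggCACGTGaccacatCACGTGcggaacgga

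The factors that bind this element had no call. Tfe3 had 4195 to 4806 units in controls and 3846 to 4871 in knockouts (0.02 ± 0.12, limma adjusted p = 0.918), and Tfeb stayed below the floor in all arrays. Their relatives Mitf (-1.25 ± 0.49, adjusted p = 0.162) and Tfec (-0.32 ± 0.17, adjusted p = 0.273) had negative differences that did not pass. Among 15 tested genes of this family and its regulators, Zkscan3, a repressor of autophagy and lysosome genes, fell by 0.76 ± 0.13 in log2 units (adjusted p = 0.0296). Rraga, a GTPase that recruits mTORC1 to the lysosome, fell by 0.37 ± 0.08 (adjusted p = 0.0467), and the list median was 0.01. The 2 calls are 13.3% of the list, close to the 13.7% of all genes tested, but both were lower, beside 5.07% of all genes called lower. Both calls were lost without any 1 of the 3 controls or without knockout 1, and that of Rraga without each array in turn.

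Other lysosomal genes moved in both directions. Of 21 further hydrolases and activators tested, 3 fell and 1 rose (19% called, beside 13.7% of all genes), with a median of 0.08. Arsb, a sulfatase of dermatan sulfate, had 75.2 to 115 units in controls and rose to 218 to 279 in knockouts (1.32 ± 0.17, adjusted p = 0.0175). Galc, which splits galactosylceramide, fell by 0.47 ± 0.08, Sumf1, which activates sulfatases, by 0.37 ± 0.07, and Aga, which splits sugar chains from asparagine, by 0.11 ± 0.02 in log2 units (adjusted p = 0.0283, 0.0326 and 0.0321). Of 18 further membrane proteins 2 rose and none fell (11.1% called, beside 13.7% of all genes, with 8.63% called higher). Laptm4b rose from 6303, 6270 and 6286 units to 9590, 9714 and 8934 (0.58 ± 0.04, adjusted p = 0.00413). Cln6, an endoplasmic reticulum protein needed for export of lysosomal enzymes, rose by 0.88 ± 0.16 (adjusted p = 0.0335).

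Of 15 V-ATPase subunits, Atp6v1d alone passed and fell by 0.48 ± 0.07 in log2 units (adjusted p = 0.0244), which is 6.67% called, beside 13.7% of all genes, and the list median was -0.09. Of all 12277 genes 4667 had a negative difference, and of these subunits 12 had one and 3 a positive one. In 5 every knockout array was below every control, as in 12.8% of all genes. Their summed signal was 137254 to 138993 units in controls and 123792 to 126993 in knockouts. Of 24 sorting genes, Gnptab, the phosphotransferase that starts the mannose 6-phosphate tag, alone passed and rose by 0.44 ± 0.04 (adjusted p = 0.0102), which is 4.17% called, with a median of 0.24. In the autophagy list Atg7, Wipi1 and Bnip3 fell, by 1.27 ± 0.27, 0.52 ± 0.11 and 0.31 ± 0.07 (adjusted p = 0.0457, 0.0448 and 0.0484), and 16 of 19 did not pass, so that 15.8% were called, near the share of all genes. All 3 autophagy calls were lower, beside 5.07% of all genes called lower. In 7 of the 19 every knockout array was below every control, as in 12.8% of all genes, and in 0 every knockout array was above. The median of the autophagy list was -0.07.

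Cathepsin inhibitors held the widest differences. Stfa3, a stefin that blocks cysteine cathepsins, had 541, 677 and 636 units in controls and 21.8, 13.7 and 10.2 in knockouts (-4.35 ± 0.17, limma adjusted p = 0.00141). Knockouts 2 and 3 were under the floor, so this value rests on the pseudocount and is not a fold. Stfa2l1 had 106 to 169 units in controls, while all knockout arrays were under the floor; set against the floor it was at least 8.38-fold lower. The stefin genes have near-identical copies that a probe set may read together, so their values are uncertain. Cst6, cystatin M, rose from 3808, 4366 and 4052 units to 8617, 8847 and 6401 (0.95 ± 0.15, adjusted p = 0.0256), and Serpinb6a, a serpin, fell by 0.35 ± 0.07 (adjusted p = 0.0399). Cst3 and Cstb, the widely expressed cystatins C and B, did not pass (0.11 ± 0.07 and -0.02 ± 0.03), and 4 of the 8 tested inhibitors were called (50%, 3 lower and 1 higher), beside 13.7% of all genes tested.

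**Figure D4:**
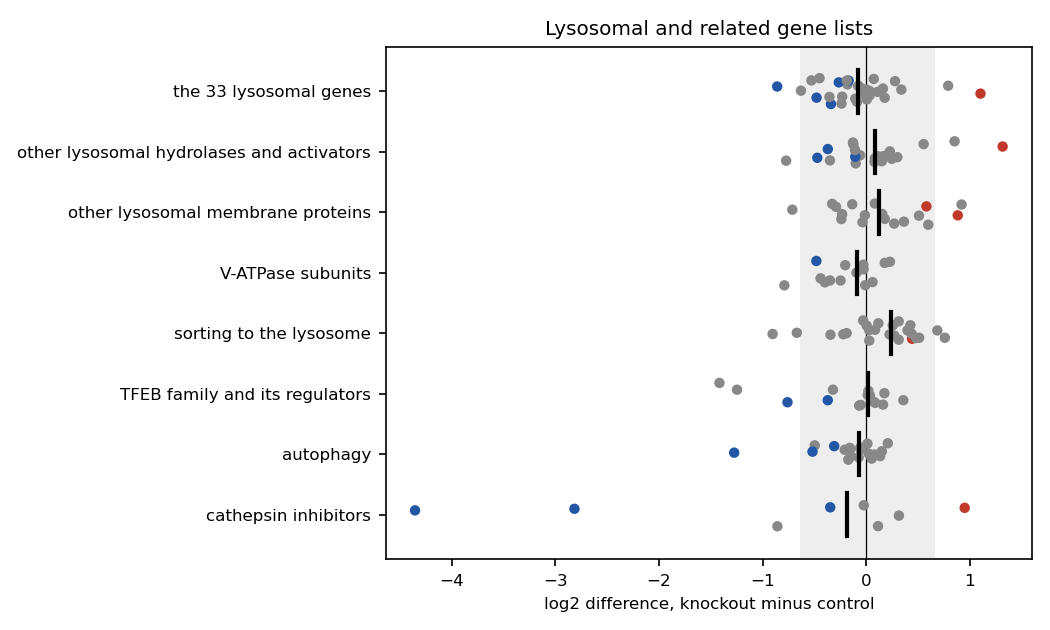
Log2 difference (x axis) of each tested gene in the 33 lysosomal genes and 7 related lists (rows); red and blue points passed the threshold, grey did not, the black bar is the list median and the grey band holds the middle of all genes tested, from their 10th to their 90th percentile (-0.63 to 0.66). The 2 stefins lie far to the left at -4.35 and -2.82.

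Of the 17 related genes called, 3 (Laptm4b, Stfa3 and Stfa2l1) passed in all 22 alternatives. The number called was 3, 7 and 3 when control 1, 2 or 3 was left out, and 4, 11 and 27 when knockout 1, 2 or 3 was. Arsb lost its call without control 1, control 3, knockout 1 or knockout 2, Gnptab without control 1 or control 3, and Atp6v1d without any control or knockout 1. Galc, Sumf1, Cln6, Atg7, Bnip3, Cst6 and Serpinb6a were lost without any array other than knockout 3. Aga was lost without any control or knockout 1, and Wipi1 without any array other than control 2.

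Markers of other cells were read for the same arrays, since leukocytes are rich in lysosomes. Of 15 leukocyte markers, 11 were below the floor in all arrays, among them Ptprc, carried by leukocytes in general, and Csf1r, Lyz2 and Adgre1, typical of macrophages, as was Ctss. Cd68, a macrophage marker that is itself a lysosomal membrane protein, had 3834, 4252 and 3688 units in controls and 1032, 1126 and 756 in knockouts (-2.01 ± 0.17, adjusted p = 0.00762), and Cd14 132 to 231 against 23.9 to 42.7. Mrc1, a mannose receptor of macrophages, had 163, 27.6 and 109 units against 16.6, 5.51 and 60.4, with overlapping groups (-1.39 ± 0.75, adjusted p = 0.279). Laptm5, a lysosomal membrane protein of leukocytes, was under the floor in every array other than knockout 2, where it had 62.6 units (0.69 ± 0.52, adjusted p = 0.427). The summed signal of the list was 3987 to 4568 units in controls and 899 to 1288 in knockouts, nearly all of it Cd68, and its part in the results above was not tested. Fibroblast, epithelial and mesothelial markers were below the floor in all arrays, and of the smooth muscle markers only Tagln was above it, at 32.1 to 207 units.

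The 3 genes on chromosome 9, Ctsh, Hexa and Glb1, all had positive differences and are 3 of the 4 whose knockout arrays lay above every control. Chromosome 9 had the highest median of all chromosomes over its 681 tested genes (0.21), and 24.4% of them were called higher, beside 8.63% of all genes. Of the 5 tested genes on each side of Ctsh, 9 of 10 had a positive difference and 2 were called higher, Plscr1 (0.50) and Plscr2 (0.84), but 3 of the 9 (Minar1, Rasgrf1 and Zic1) were under the floor in both group means, so their sign says nothing. Around Hexa 6 of 10 were positive and 1 was called higher, and around Glb1 8 of 10 and 2. Those counted as positive include 9230112J17Rik near Hexa and Fbxl2 near Glb1, also under the floor in both group means. Over all 12277 genes tested, 7610 had a positive difference. Chromosomes were taken from a gene table for order only and looked at after the values were known, and the part of the chromosome in these differences was not tested.

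**Figure D5:**
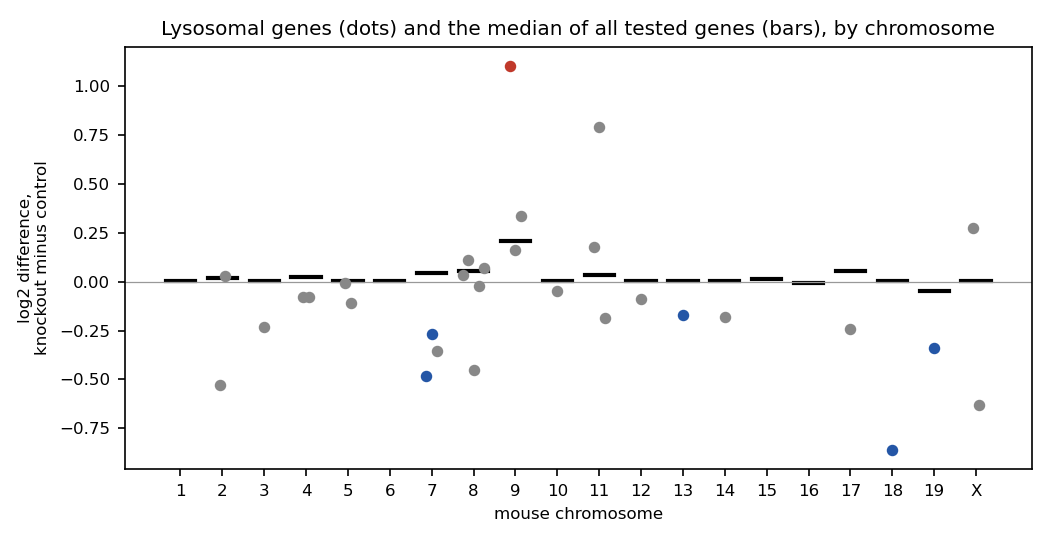
Log2 difference (y axis) of the 30 lysosomal genes above the floor (dots; red and blue passed the threshold) by mouse chromosome (x axis), with the median of all tested genes of that chromosome as a bar. On chromosome 9 the bar is at 0.21 and all 3 dots are above 0, with Ctsh at 1.10.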

How the data were processed

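Linear intensity values, 1 for each probe set of each array, were used as the authors deposited them, with array medians of 5.52 to 5.66 units and no added scaling. MAS5 and GCRMA appear in the submitters' processing notes, and their versions and roles are not given in the sources used here. Such values have a floor near 5 units, which hides differences of dim genes. Of 45101 probe sets, 64 of which were array controls and set aside, 932 had several genes (not named), 9211 none listed here and 34958 had 1 gene, of which a GRCm38.p6 gene table held 34754.

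The dimmest 40% of probe sets, by mean over the arrays, were dropped. Groups were compared on log2(intensity + 16) with limma 3.58.1 (R 4.3.3, lmFit and eBayes, two-sided), adjusted by Benjamini-Hochberg over 12277 genes, and checked on simulated data. The pseudocount understates changes of dim genes, and 3 arrays a group limit the precision. Members, lists and named genes (members, up to 4 called genes of a list, the brightest markers) were chosen with earlier results of these data known. Further genes (Tfeb, Tfe3, Cst3, Cstb, Vwf, Cldn5, Tagln, Ptprc, Csf1r, Lyz2, Adgre1, Mrc1, Laptm5 and the neighbours of Ctsh, Hexa and Glb1) were named after their values were seen. Among list genes, 14 had no probe set naming them alone. Alternatives changed the scaling, pseudocount, filter, probe set rule, eBayes settings, array weights, replicate block and arrays used. Figures were drawn with matplotlib 3.10.9.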

Additional observations from a re-analysis of the deposited data

How the results depend on the processing

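The number of lysosomal genes called was 6 and lay between 0 and 7 with each array left out in turn, while the number over all genes lay between 207 and 3008 around 1683, that over the related lists between 3 and 27 around 17, and the median of the lysosomal genes between -0.13 and -0.02. Scaling by the median of the kept probe sets left 1 lysosomal gene called (Ctsh). Without a filter on dim probe sets there were 3 lysosomal, 8 related and 883 genes in all. An unadjusted limma p under 0.05 then held for 3821 of 18193 genes, beside 3980 of 12277 with the filter. With array weights there were 23, 92 and 8541. The replicate number as a block gave 2995 genes in all, 26 related and 9 lysosomal. Deviations of same-numbered arrays from their group means correlated at -0.47, 0.84 and 0.80 over genes, while control 1 correlated at 0.76 with knockout 3. Deviations within a group depend on each other, so these correlations cannot tell whether the numbers pair the arrays.

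Of the alternatives added after the data were seen, the spike-in level as a covariate gave 365 genes in all and 3 related, with 5 lysosomal genes and their median at -0.21. With controls 1 and 3 averaged there were 194, 3 and 0, with 8 lysosomal genes at an unadjusted limma p under 0.05. With control 2 and knockout 3 left out there were 4644, 43 and 12, and the median turned to 0.0048. The cause of these shifts was not tested. No called lysosomal gene changed sign in any of the 22 alternatives. The groups of these genes did not overlap, so alternatives that only drop, average or weight arrays could not have changed it. Groups of 3 arrays limit every call.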

Other observations

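Several regulators of lysosome genes differed widely between arrays of one group. Mitf, a relative of TFEB, had 1306, 809 and 1254 intensity units in controls 1 to 3 and 417, 259 and 853 in knockouts 1 to 3, with knockout 3 above control 2 (log2 difference -1.25 ± 0.49, limma adjusted p = 0.162). Fnip1, a partner of folliculin in mTORC1 signalling at the lysosome, had 3007, 1395 and 3455 units against 826, 466 and 1899 (-1.42 ± 0.65, adjusted p = 0.216). Vps35, the core of the retromer that returns sorting receptors from endosomes, had 6733, 3905 and 6978 units against 3717, 1939 and 6272 (-0.67 ± 0.51, adjusted p = 0.433). In each of these control 2 was the lowest control and knockout 3 the highest knockout, as in Lamp2 and Asah1 among the lysosomal genes. Tfec, a further relative, was lower in every knockout array than in every control without passing (-0.32 ± 0.17, adjusted p = 0.273). These genes were picked after their values were seen.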
